A study of Homo sapiens with 32 samples.

Results

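The 10 genes described here belong to the BCL2 family, the proteins that decide whether the outer mitochondrial membrane is opened during apoptosis. They were taken by symbol from the 25498 genes of the deposited tables. Of these, 7 encode BH3-only proteins, which promote death (*BMF*, *BCL2L11*, *BBC3*, *BIK*, *PMAIP1*, *BAD*, and *HRK*), and 3 encode survival proteins (*MCL1*, *BCL2L1*, and *BCL2*). All 10 had at least 5 counts in at least 3 libraries, as did 16995 genes in all. The set was drawn up because earlier results of these data showed low *BMF* at 4 hours and high *MCL1* at 1 hour after ligand, so those values are given as a description, without a *P* value.

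BH3-only proteins bind the groove of the survival proteins and so release BAX and BAK1, the effectors that form pores in mitochondria. Each cell therefore carries both killers and guardians, and growth factor signals are known to act on several of them through transcription, phosphorylation, and protein turnover. In prostate epithelium, loss of androgen is a classical trigger of this pathway.

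The libraries were made from polyA RNA of LNCaP, an androgen-dependent prostate cancer line established from a lymph node metastasis. The 8 groups had 4 libraries each, 2 biological replicates in each of 2 batches. One group grew in FBS, and 7 groups were moved to charcoal/dextran-treated serum (CSS), which is depleted of steroids, the day after plating. Of those, 1 received no ligand (the CSS group) and 6 received 100 ng/mL EGF, which binds EGFR, or 100 ng/mL NRG-1, which binds HER3 and HER4, for 5 minutes, 1 hour, or 4 hours. The same 4 CSS libraries were the controls for both ligands and all times, so the comparisons with CSS are not independent of one another. All cells are 1 line, so the libraries cannot speak for other prostate tumors.

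The libraries held 63822654 to 92401724 expected counts (median, 77866194), and no 2 libraries of a group were repeats of each other. The 9 luminal prostate markers summed to 3023–6057 TPM in each library, whereas *KRT5*, *TP63*, *COL1A2*, *PECAM1*, *CDH5*, and *CD3E* were at 0.03 TPM or less in every library. The basal, stromal, endothelial, and blood markers summed to at most 2.17, 5, 0.01, and 0.17 TPM. The batch 2 replicate 2 libraries stood apart in several members. They had the highest *PMAIP1* CPM in 8 of 8 groups, the lowest *BCL2* CPM in 8 of 8 groups, and the lowest *BCL2L11* CPM in 7 of 8 groups. For the named genes, calls against CSS that changed when these libraries were left out are given both ways. Leaving them out was a choice made after seeing the data. In bulk RNA, fewer cells of a type and less RNA per cell cannot be told apart.

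Levels differed widely between members in CSS, on the TPM scale, which is corrected for transcript length. *MCL1* was highest, at 123 ± 11.1 TPM (SD, *n* = 4), followed by *BAD* at 102 ± 4.61 and *BCL2L1*, which encodes BCL-XL, at 70.6 ± 4.32 TPM. A middle tier held *PMAIP1* (NOXA) at 15.3 ± 1.79 TPM, *BIK* at 14.5 ± 1.64 TPM, *BCL2L11* (BIM) at 11.7 ± 1.39 TPM, and *BBC3* (PUMA) at 9.44 ± 1.24 TPM. Each of these 4 overlapped its neighbor in that order. *BMF* followed at 6.56 ± 0.723 TPM, then *BCL2* at 2.00 ± 0.459 TPM and *HRK* at 0.815 ± 0.219 TPM, with no overlap between neighbors from *BBC3* downward.

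At 5 minutes, no member passed the test with either ligand. The test was edgeR's quasi-likelihood test with Benjamini-Hochberg adjustment over all 16995 genes, and a gene passed at an adjusted *P* value below 0.05. With EGF, 0.00588% of all genes passed, and with NRG-1, 0%. The members' log2 fold changes against CSS ran from 0.00 to 0.19 with EGF and from -0.20 to 0.18 with NRG-1, and 0 members had an unadjusted *P* value below 0.05 in either comparison. Across all genes, 251 with EGF and 324 with NRG-1 had an unadjusted *P* value below 0.05, and DESeq2 called 2 and 1 genes. EGF and NRG-1 at 5 minutes did not differ for any gene (0%), with 184 genes at an unadjusted *P* value below 0.05 and 0 calls by DESeq2.

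By 4 hours, *BMF*, *BCL2L11*, *BBC3*, and *BIK* were lower with both ligands, *HRK* was higher, and *PMAIP1* and *BAD* did not pass. Thus, among the 7 BH3-only genes, 1 was higher and 4 were lower with EGF, and the same numbers held with NRG-1. Of all genes, 24.6% were higher and 24.6% lower at 4 hours with EGF, and 21.6% were higher and 21% lower with NRG-1. Nothing is read from these counts, because *BMF* entered them by choice. The median log2 fold change of the 7 genes was -0.69 with EGF, beside -0.02 over all genes, and -0.51 with NRG-1, beside -0.01. These medians and the DEG counts that follow include *BMF* too, so nothing is read from them either. With the added limit of a log2 fold change beyond 1, which defines the study's differentially expressed genes (DEGs), 3 members qualified with each ligand (*BMF*, *BBC3*, and *HRK*), where 9.56% of all genes were DEGs with EGF and 7.41% with NRG-1.

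The promoters of the 3 BH3-only genes with the lowest levels at 4 hours relative to CSS are shown because these genes were lower together. They are the 250 bases before the first RefSeq start of each gene in GRCh38.p14, written 5′ to 3′ on the gene's strand. The expression values were made on hg19, and no coordinates of that build are used. The windows are chr15:40108880-40109129 (minus strand) for *BMF*, chr2:111120664-111120913 (plus strand) for *BCL2L11*, and chr19:47232668-47232917 (minus strand) for *BBC3*, and all lie directly upstream of the annotated gene. Capitals mark any of the 5 motifs searched on both strands.
BMF: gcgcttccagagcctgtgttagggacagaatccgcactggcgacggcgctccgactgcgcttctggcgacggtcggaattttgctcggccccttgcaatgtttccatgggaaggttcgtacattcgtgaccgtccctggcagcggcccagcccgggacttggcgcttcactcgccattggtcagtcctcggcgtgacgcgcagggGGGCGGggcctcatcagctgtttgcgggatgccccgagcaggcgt
BCL2L11: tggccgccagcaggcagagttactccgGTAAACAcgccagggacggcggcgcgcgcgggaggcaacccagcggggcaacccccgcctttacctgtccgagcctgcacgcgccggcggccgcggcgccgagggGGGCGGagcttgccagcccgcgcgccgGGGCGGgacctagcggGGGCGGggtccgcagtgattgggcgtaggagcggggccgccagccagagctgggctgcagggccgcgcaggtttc
BBC3: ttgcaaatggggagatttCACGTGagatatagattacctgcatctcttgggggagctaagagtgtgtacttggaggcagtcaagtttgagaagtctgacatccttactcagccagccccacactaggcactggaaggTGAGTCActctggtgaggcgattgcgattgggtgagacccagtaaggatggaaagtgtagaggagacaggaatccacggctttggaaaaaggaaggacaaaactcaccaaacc

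No motif occurred in all 3 windows. The forkhead motif GTAAACA occurred in *BCL2L11*, 223 to 217 bases before the start, and in 2.98% of all 35116 promoter windows. *BBC3* held the E-box CACGTG (232 to 227 bases before the start, 6.34% of windows) and the AP-1 motif TGAGTCA (113 to 107 bases before the start, 4.2% of windows). The GC box GGGCGG lay in *BMF*, 45 to 40 bases before the start, and 3 times in *BCL2L11*, and 42.6% of windows held it. The cAMP response element TGACGTCA was in no member's window and in 1.65% of all windows. Windows were found for 8 of the 10 members (11 windows, since *BMF*, *BAD*, and *BCL2L1* had 2 each). *PMAIP1*, *BAD*, and *HRK* also held the GC box, for 5 members in all. The motifs did not overlap one another, and a match describes letters only.

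*BMF* encodes a BH3-only protein that is held at the cytoskeleton through a dynein light chain. Per library, in the order batch 1 replicates 1 and 2 and batch 2 replicates 1 and 2, *BMF* was at 17.6, 17.2, 17.4, and 15.3 CPM (counts scaled to library size with TMM factors) in CSS. With EGF it was at 12.6, 14.0, 12.2, and 11.9 CPM at 1 hour and 1.35, 1.88, 2.14, and 1.71 CPM at 4 hours. With NRG-1 it was at 13.7, 13.5, 13.0, and 10.2 CPM at 1 hour and 2.78, 2.30, 3.21, and 2.54 CPM at 4 hours. No library at 1 hour reached the lowest CSS library, and every library at 4 hours was below every library at 1 hour. The 5-minute means, 16.9 ± 0.641 CPM with EGF and 17.2 ± 1.48 CPM with NRG-1, were beside 16.9 ± 1.09 CPM in CSS (SD, *n* = 4).

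The *BMF* decrease was slight at 1 hour and large at 4 hours. The log2 fold change against CSS was -0.41 (SE 0.11) with EGF and -0.42 (SE 0.11) with NRG-1 at 1 hour. At 4 hours it was -3.24 (SE 0.13) with EGF, a 9.46-fold lower level, and -2.64 (SE 0.13) with NRG-1, a 6.23-fold lower level. In each batch alone the 4-hour value was -3.41 and -3.05 for EGF, and -2.78 and -2.49 for NRG-1. The libraries at 4 hours still held 95–210 *BMF* counts, against 1201–1571 in CSS.

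**Figure D1:**
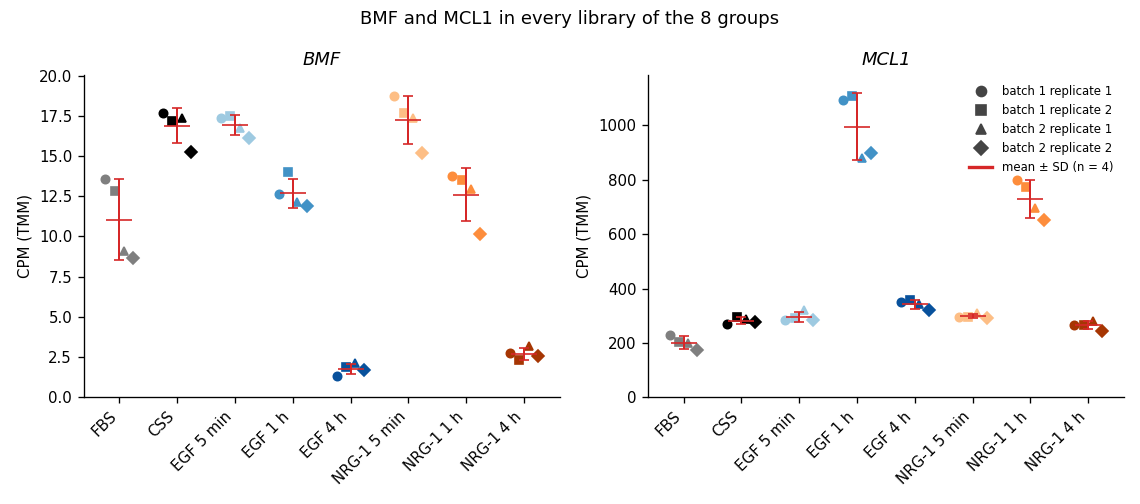
*BMF* (left) and *MCL1* (right) in CPM per library for the 8 groups. Each point is 1 library, its shape gives the batch and replicate, and the red mark and bar are the mean ± SD of 4 libraries. *BMF* lies at 1.35–3.21 CPM in the 8 libraries taken at 4 hours and at 8.69 CPM or more in all others, and *MCL1* lies at 650–1109 CPM in the 8 libraries taken at 1 hour and at 357 CPM or less in all others.

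*BCL2L11* encodes BIM, a BH3-only protein that binds all the survival proteins. It was at 32.6, 34.8, 34.4, and 30.4 CPM in CSS and fell to 16.0, 14.7, 18.8, and 16.6 CPM with EGF at 4 hours. With NRG-1 at 4 hours it was at 16.9, 16.9, 18.9, and 16.2 CPM, and neither group overlapped CSS. The log2 fold change was -0.997 (SE 0.08, adjusted *P* = 4.24e-11) with EGF, just short of the DEG limit, and -0.94 (SE 0.08, adjusted *P* = 2.04e-10) with NRG-1. At 1 hour the 4 EGF libraries (26.3–29.0 CPM) and the 4 NRG-1 libraries (26.3–30.3 CPM) also lay below CSS without overlap. These differences did not pass (-0.24, adjusted *P* = 0.0573 with EGF and -0.19, adjusted *P* = 0.215 with NRG-1), but with the replicate as a block the adjusted *P* value was 0.00292 with EGF and 0.0295 with NRG-1. Without the batch 2 replicate 2 libraries, the EGF value at 1 hour had an adjusted *P* of 0.00505.

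*BBC3* encodes PUMA, a BH3-only protein best known as a target of p53. It was at 8.17, 8.98, 10.6, and 8.62 CPM in CSS, at 2.57, 3.14, 4.83, and 4.36 CPM with EGF at 4 hours, and at 3.20, 3.22, 4.87, and 4.00 CPM with NRG-1 at 4 hours. No library at 4 hours reached the CSS range. The gene fell by 1.30 on the log2 scale (SE 0.11, adjusted *P* = 1.30e-10) with EGF and by 1.26 (SE 0.11, adjusted *P* = 3.83e-10) with NRG-1. At 1 hour the direction was opposite. *BBC3* was at 11.7, 12.1, 12.6, and 10.8 CPM with NRG-1, above every CSS library, and rose by 0.38 (SE 0.11, adjusted *P* = 0.0239). That call was lost in 9 of 20 alternatives. Among them were the fits without CSS batch 1 replicate 1, CSS batch 2 replicate 2, or either batch 1 library of NRG-1 at 1 hour (adjusted *P*, 0.0731–0.114). The others were batch 2 alone (adjusted *P* = 0.649), no batch term (0.145), and limma on log2 TPM (0.274–0.373). With EGF at 1 hour the log2 fold change was 0.24 (SE 0.11, adjusted *P* = 0.197).

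*BIK* encodes a BH3-only protein of the endoplasmic reticulum. Its CSS libraries spanned 5.17–7.41 CPM, and its EGF libraries at 4 hours spanned 3.30–4.59 CPM without overlap (log2 fold change -0.69, SE 0.13, adjusted *P* = 3.69e-05). With NRG-1 at 4 hours it fell by 0.51 (SE 0.13, adjusted *P* = 0.00147), but the libraries (3.50–6.13 CPM) overlapped CSS, and in batch 2 alone the log2 fold change was -0.37 with an adjusted *P* of 0.23. At 1 hour, *BIK* rose with NRG-1 by 0.41 (SE 0.12, adjusted *P* = 0.0358), a call lost in 12 of 20 alternatives. Among them were batch 1 alone (adjusted *P* = 0.106), batch 2 alone (0.439), and the fit without the batch term (0.338). The 12 also held the fits without any of 5 libraries, with adjusted *P* values of 0.0704–0.212. Those were CSS batch 1 replicate 2, both batch 2 CSS libraries, and NRG-1 at 1 hour batch 1 replicate 2 and batch 2 replicate 2. The EGF value at 1 hour was 0.33 (SE 0.12, adjusted *P* = 0.0913), with an adjusted *P* of 0.0286 under the replicate block and 0.0139 without the batch 2 replicate 2 libraries.

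*PMAIP1* encodes NOXA, the BH3-only partner of MCL1 that is known to promote its destruction. It was at 14.0, 13.5, 16.4, and 19.4 CPM in CSS, and at 29.5, 28.3, 29.0, and 31.6 CPM with EGF at 1 hour. With NRG-1 at 1 hour it was at 21.8, 21.3, 23.9, and 33.9 CPM, and both groups lay above every CSS library. It rose by 0.93 on the log2 scale (SE 0.16, adjusted *P* = 6.39e-05) with EGF and by 0.67 (SE 0.15, adjusted *P* = 0.00476) with NRG-1. In batch 2 alone these values were 0.77 and 0.69, with adjusted *P* values of 0.305 and 0.535. By 4 hours the libraries overlapped CSS, at 13.9–20.2 CPM with EGF (log2 fold change 0.02, adjusted *P* = 0.937) and 10.2–20.4 CPM with NRG-1 (-0.22, adjusted *P* = 0.282). Without the batch 2 replicate 2 libraries, the NRG-1 value at 4 hours was -0.34 with an adjusted *P* of 0.00493.

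*HRK* encodes a BH3-only protein with a mainly neuronal expression. It was the least abundant member in CSS and, among the 7 BH3-only members, the only gene that rose at 4 hours. It was at 0.641, 0.788, 0.586, and 0.462 CPM in CSS, 1.92, 1.95, 1.37, and 1.53 CPM with EGF, and 2.54, 2.44, 1.37, and 1.52 CPM with NRG-1, without overlap. The log2 fold change was 1.45 (SE 0.19, adjusted *P* = 1.61e-07) with EGF and 1.65 (SE 0.19, adjusted *P* = 2.21e-08) with NRG-1. These values rested on 38–55 counts per library in CSS and 90–190 counts at 4 hours.

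*BAD*, whose protein is switched off by survival kinases through phosphorylation and 14-3-3 binding, showed little change in RNA. Its group means ran from 46.3 to 53.0 CPM, and no comparison with CSS passed. The intervals of its log2 fold changes against CSS at 1 hour and 4 hours lay between -0.18 and 0.29 (95% intervals). The NRG-1 libraries at 1 hour (49.7–55.9 CPM) lay above the CSS libraries (46.5–48.7 CPM), with a log2 fold change of 0.15 and an adjusted *P* of 0.248.

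**Figure D2:**
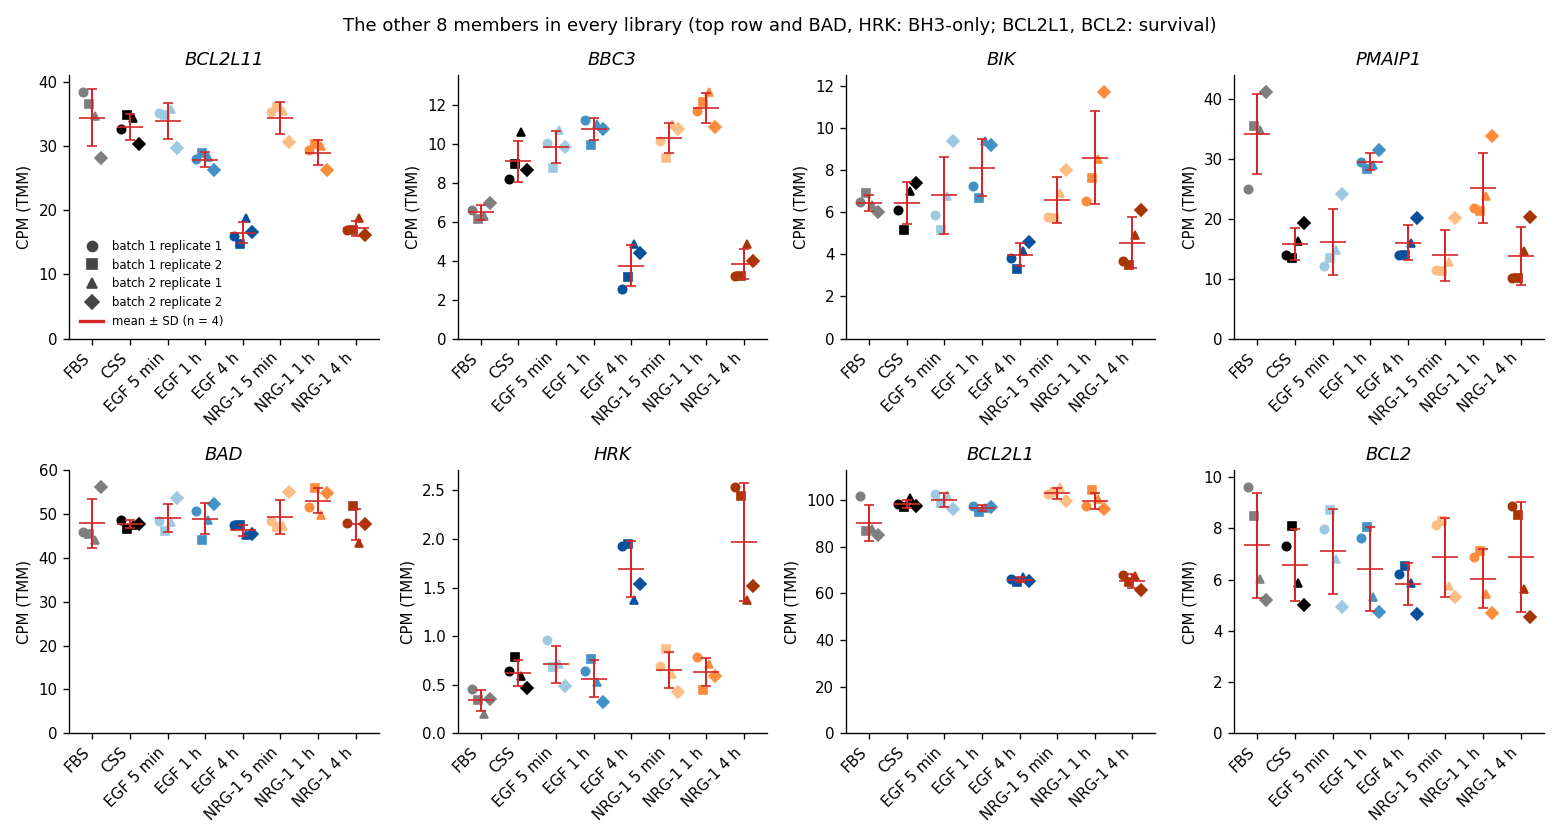
The other 8 members in CPM per library, 1 panel per gene with its own axis. Each point is 1 library, and the red mark and bar are the mean ± SD of 4 libraries in each of the 8 groups. In *BCL2L11*, *BBC3*, and *BCL2L1* the 8 libraries at 4 hours lie below every CSS library, whereas *HRK* has the 8 libraries at 4 hours above every CSS library.

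At 1 hour the BH3-only genes as a list were mixed. With EGF, 1 rose and 1 was lower, beside 6% of all genes higher and 3.51% lower. With NRG-1, 3 rose and 1 was lower, beside 4.45% higher and 2.28% lower. None was a DEG at 1 hour, and *MCL1* was the sole DEG among the 10 members with each ligand, where 1.72% of all genes were DEGs with EGF and 0.989% with NRG-1. Nothing is read from that call or from the lower *BMF* in these counts, because both genes entered the set for these changes. Over all members, 3 passed with EGF at 1 hour, and 5 passed under the replicate block and without the batch 2 replicate 2 libraries. Of all genes, 1617 of 16995 passed in the reported fit, 2536 of 16995 with the block, and 2121 of 16879 without those libraries. From 1 hour to 4 hours, 8 of 10 members differed with EGF (44% of all genes) and 8 of 10 with NRG-1 (37.5% of all genes). *HRK* was higher at 4 hours than at 1 hour, and 7 members were lower, with *BAD* and *BCL2* not passing. *BMF* and *MCL1* were among the lower members. Both entered the set for their levels at these times, so nothing is read from the counts between 1 hour and 4 hours.

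*MCL1* was the survival gene that stood out at 1 hour. It encodes a short-lived survival protein whose level follows its synthesis closely. It was at 269, 296, 286, and 278 CPM in CSS, at 1093, 1109, 880, and 897 CPM with EGF at 1 hour, and at 801, 773, 696, and 650 CPM with NRG-1 at 1 hour. The 3 groups did not overlap. At 4 hours it was at 352, 357, 342, and 320 CPM with EGF, still above every CSS library, and at 266, 268, 282, and 245 CPM with NRG-1, overlapping CSS. The log2 fold change at 1 hour was 1.81 (SE 0.07, 3.51-fold) with EGF and 1.37 (SE 0.07, 2.58-fold) with NRG-1. At 4 hours it was 0.28 (SE 0.07) with EGF and -0.09 (SE 0.07) with NRG-1. In each batch alone the 1-hour value was 1.97 and 1.66 for EGF, and 1.48 and 1.25 for NRG-1.

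*BCL2L1* did not move with *MCL1*. It was at 98.1, 97.0, 101, and 97.4 CPM in CSS, and its log2 fold changes at 1 hour were -0.03 (SE 0.05) with EGF and 0.02 (SE 0.05) with NRG-1. At 4 hours it fell to 65.9, 64.9, 67.2, and 65.3 CPM with EGF and to 67.8, 64.7, 67.6, and 61.3 CPM with NRG-1. The fall was by 0.58 on the log2 scale (SE 0.05, adjusted *P* = 2.13e-11) and by 0.59 (SE 0.05, adjusted *P* = 2.26e-11), respectively. *BCL2*, the founding survival gene, had group means of 5.82–7.33 CPM and passed in no comparison with CSS. Both batch 1 libraries lay above both batch 2 libraries in 8 of 8 groups, so its spread followed the batch. Without EGF at 4 hours batch 2 replicate 1, *BCL2* passed in that comparison, with an adjusted *P* of 0.0279. In batch 1 alone it passed with EGF at 4 hours (-0.27, adjusted *P* = 0.0177) and in FBS (0.24, adjusted *P* = 0.0313). In batch 2 alone it passed in neither.

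**Figure D3:**
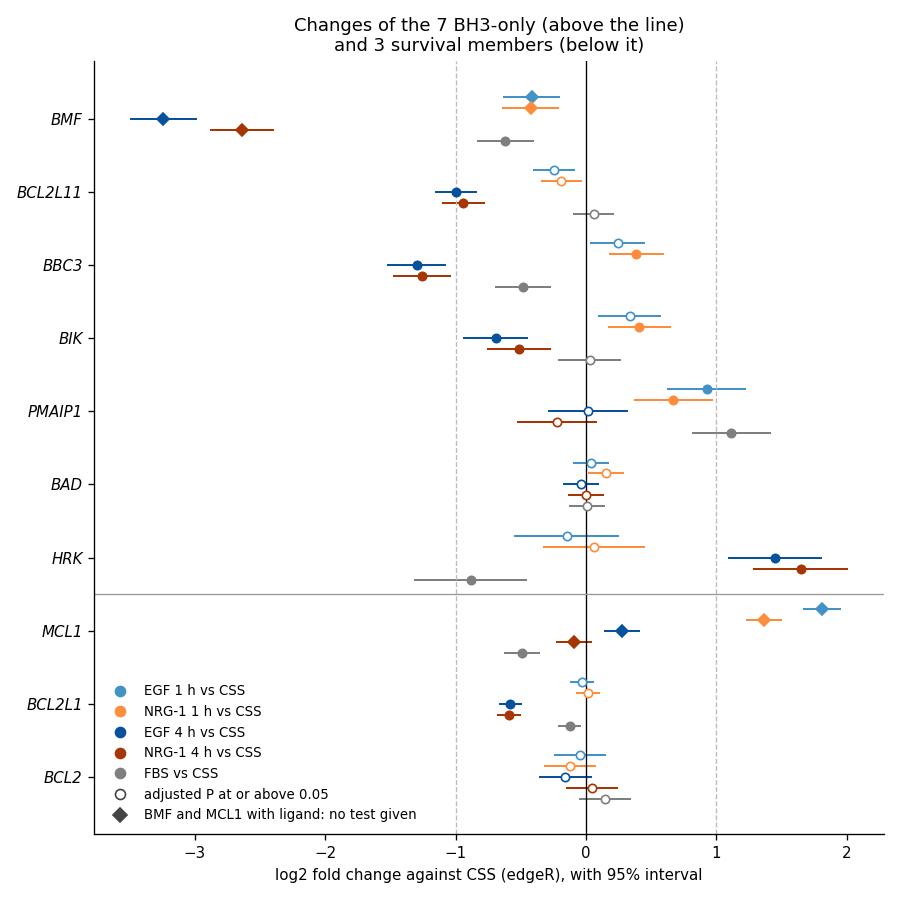
Log2 fold change against CSS of the 10 members (rows) in 5 comparisons (colors: each ligand at 1 hour and 4 hours, and FBS), with 95% intervals from the edgeR fit and dashed lines at -1 and 1. Filled circles passed at an adjusted *P* below 0.05, open circles did not, and diamonds are *BMF* and *MCL1* with ligand, which have no test. *BMF* reaches -3.24 with EGF at 4 hours and *MCL1* reaches 1.81 with EGF at 1 hour.

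EGF and NRG-1 were compared directly at each time, since both bind receptors that pair with HER2. The values of *MCL1* and *BMF* are again a description, since the libraries with high *MCL1* and low *BMF* are those the set was drawn up on. At 1 hour, *MCL1* was higher with EGF by 0.44 on the log2 scale (SE 0.07), and every EGF library lay above every NRG-1 library. At 4 hours, *MCL1* was higher with EGF by 0.37 (SE 0.07) and *BMF* was lower with EGF (-0.60, SE 0.14), again without overlap. In batch 2 alone these 3 values were 0.41, 0.34, and -0.56. Of all genes, 1.06% differed between the ligands at 1 hour and 1.66% at 4 hours, and none of the other 8 members passed at either time. Without the batch 2 replicate 2 libraries, *PMAIP1* differed at 1 hour (0.38, adjusted *P* = 0.0287). A difference that did not pass does not show that the ligands acted alike.

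FBS, which retains steroids and serum growth factors, was compared with CSS. *PMAIP1* rose, and *BMF*, *BBC3*, *HRK*, *MCL1*, and *BCL2L1* fell, so that 1 of 10 members was higher (26% of all genes) and 5 were lower (26.8% of all genes). *PMAIP1* was at 25.1, 35.6, 34.9, and 41.2 CPM in FBS, above every CSS library. It rose by 1.12 (SE 0.16, adjusted *P* = 7.17e-07) and was the sole DEG among the members. *BMF* was at 13.6, 12.8, 9.11, and 8.69 CPM, below every CSS library (-0.62, SE 0.11, adjusted *P* = 3.68e-05), and in each batch alone the value was -0.40 and -0.87. The choice of *BMF* and *MCL1* used the same CSS libraries, so their differences in FBS are not independent of that choice.

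*MCL1* in FBS was at 229, 203, 200, and 174 CPM, also without overlap with CSS (-0.49, SE 0.07, adjusted *P* = 1.35e-06). *BBC3* was at 6.11–6.97 CPM (-0.48, SE 0.11, adjusted *P* = 5.44e-04), and *HRK* was at 0.199–0.453 CPM (-0.88, SE 0.22, adjusted *P* = 0.00142), the latter on 16–38 counts. The *BCL2L1* difference was small (-0.13, SE 0.05, adjusted *P* = 0.0242) and was lost within each batch (adjusted *P* = 0.569 and 0.0806). It was also lost without the batch 2 replicate 2 libraries (adjusted *P* = 0.128) and without CSS batch 2 replicate 1 or any single FBS library other than batch 1 replicate 1 (adjusted *P*, 0.0634–0.0937). On the log2(TPM + 1) scale the median of all genes in this comparison was -0.17, against -0.01 on the count scale, so FBS values on the TPM scale are read relative to that shift.

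The order of the 8 groups differed between *MCL1* and *BMF*. For *MCL1* it began with EGF at 1 hour, NRG-1 at 1 hour, and EGF at 4 hours, which did not overlap one another. A cluster of both 5-minute groups, CSS, and NRG-1 at 4 hours followed, and then FBS. The lowest EGF library at 4 hours (320 CPM) lay just below the highest EGF library at 5 minutes (322 CPM). For *BMF* the 5-minute groups and CSS overlapped at the top, followed by an overlapping set of both 1-hour groups and FBS, then NRG-1 at 4 hours, then EGF at 4 hours, with no overlap between those last steps. For *BCL2L11*, FBS (28.1–38.4 CPM) overlapped the 5-minute groups and CSS at the top, the 1-hour groups came next, and the 4-hour groups were lowest.

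The killers were then set against the guardians as summed TPM per library, as a description. In CSS the 7 BH3-only genes summed to 160 ± 5.63 TPM and the 3 survival genes to 196 ± 15.4 TPM, a ratio of 0.819 ± 0.0425 (SD, *n* = 4). The ratio was 0.356 ± 0.0538 with EGF at 1 hour and 0.476 ± 0.0676 with NRG-1 at 1 hour, in each library below every CSS library. At 4 hours it was 0.685 ± 0.0396 with EGF, below CSS without overlap, and 0.846 ± 0.0931 with NRG-1, overlapping CSS. FBS had the highest mean ratio, at 1.14 ± 0.195. Its lowest library (0.936) lay below the highest library of NRG-1 at 4 hours (0.973) and of EGF at 5 minutes (0.963). The batch 2 replicate 2 library had the highest ratio in 8 of 8 groups.

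The parts of these sums were uneven. *BAD* made up 58.4% to 73.1% of the BH3-only sum in every group, and *BMF* made up 4.09% in CSS, 0.510% with EGF at 4 hours, and 0.764% with NRG-1 at 4 hours. *MCL1* made up 62.9% of the survival sum in CSS, 85.7% with EGF at 1 hour, and 81.2% with NRG-1 at 1 hour. Without *MCL1* the mean ratio was 2.21 in CSS and 2.48 and 2.53 with EGF and NRG-1 at 1 hour. The low ratios at 1 hour thus rested on *MCL1*, which entered the set for its high level at that time, so nothing is read from them. At 4 hours the ratio without *MCL1* was 2.77 with EGF and 2.83 with NRG-1, above CSS and above FBS (2.635). Without *BAD*, in contrast, it was 0.188 with EGF and 0.228 with NRG-1, below 0.298 in CSS, and from summed CPM it was 0.218 and 0.273, below 0.335.

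**Figure D4:**
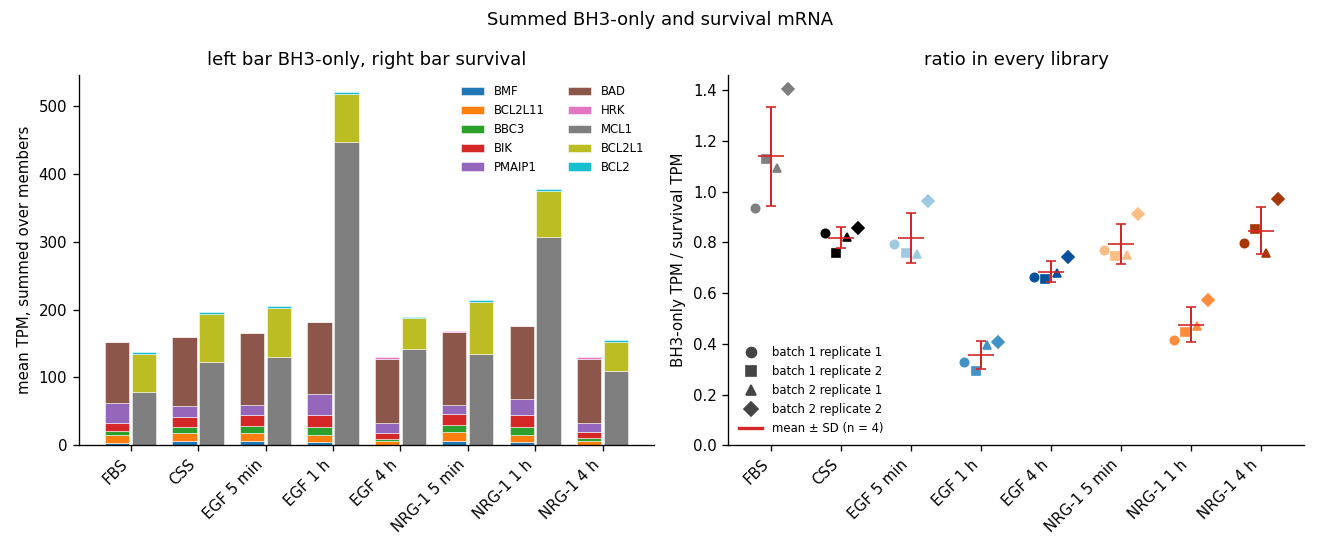
Summed TPM of the BH3-only and survival genes in the 8 groups (left and right bars, mean of 4 libraries, stacked by gene from 0) and the ratio of the sums in each library (points, with mean ± SD in red). The survival sum is 520 TPM with EGF at 1 hour and 196 TPM in CSS, and the ratio runs from 0.295 in an EGF library at 1 hour to 1.41 in an FBS library.

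Other genes of the pathway were described from 5 lists, each beside the share of all genes at 4 hours given above. Of 11 tested relatives of the BCL2 family outside the 10 members, 6 rose and 0 fell with EGF, and 7 rose and 0 fell with NRG-1, with medians of 0.21 and 0.30. *BOK*, a BAX-like effector, rose from 19.8 ± 1.91 TPM in CSS to 52.6 ± 6.58 with EGF and 47.8 ± 9.41 TPM with NRG-1 (log2 fold change 1.48, adjusted *P* = 6.29e-15, and 1.36, adjusted *P* = 5.96e-14). The pore-forming effector *BAK1* rose by 0.89 (adjusted *P* = 5.02e-13) and 0.67 (adjusted *P* = 2.83e-10). The effector *BAX* did not pass (-0.21, adjusted *P* = 0.115, and -0.03, adjusted *P* = 0.851). With EGF it passed, as lower, in 4 of 20 alternatives. Among them was the fit without the batch 2 replicate 2 libraries (-0.25, adjusted *P* = 0.0421). *BID*, the link to death receptors, rose by 0.60 and 0.55, and *BCL2L12* rose by 0.45 and 0.36. *BCL2A1* and *BCL2L10* had at most 4 counts in any library and were not tested.

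Downstream of mitochondria, the list of 15 apoptosome, caspase, and inhibitor of apoptosis genes had 3 higher and 3 lower with EGF and 2 higher and 3 lower with NRG-1. *APAF1*, the scaffold of the apoptosome, fell from 2.90 ± 0.239 TPM in CSS to 1.29 ± 0.108 with EGF and 1.40 ± 0.147 TPM with NRG-1 (-1.14, adjusted *P* = 9.74e-14, and -0.91, adjusted *P* = 1.58e-11). The initiator caspase *CASP9* fell by 0.30 and 0.28, and *CASP6* fell by 0.38 (adjusted *P* = 0.00845) and 0.29 (adjusted *P* = 0.046). The NRG-1 call of *CASP6* was lost in 8 of 20 alternatives, among them leaving out CSS batch 1 replicate 1 or batch 2 replicate 2 or any NRG-1 library at 4 hours except batch 2 replicate 2 (adjusted *P*, 0.112–0.137).

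In the death receptor arm, 10 of 11 genes were tested, with 4 higher and 4 lower with EGF and 4 higher and 2 lower with NRG-1. The adaptor *FADD* rose by 0.61 and 0.44 and the receptor *TNFRSF1A* by 0.58 and 0.40. *FAS* fell with EGF (-0.58, adjusted *P* = 0.00537), and its NRG-1 value was -0.18 (adjusted *P* = 0.434). The ligand *TNFSF10* (TRAIL) fell by 0.89 (adjusted *P* = 0.0359) and 0.94 (adjusted *P* = 0.0358). Its level was 0.233 ± 0.0499 TPM in CSS and 0.122 ± 0.0709 and 0.115 ± 0.0545 TPM with the ligands. Of 18 alternative analyses, 12 and 10 lost these calls. Without the batch 2 replicate 2 libraries, the EGF value was -0.62 with an adjusted *P* of 0.105.

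Among 10 transcription factors known to act on BH3-only genes, 2 were higher and 5 lower with each ligand. *FOXO3*, a forkhead factor that can activate *BCL2L11* and *BBC3*, fell from 70.5 ± 14.4 TPM to 36.2 ± 4.75 with EGF and 32.2 ± 8.43 TPM with NRG-1 (-0.87, adjusted *P* = 1.97e-06, and -1.04, adjusted *P* = 1.43e-07). *FOXO4* fell by 0.63 and 0.62, and the p53 relative *TP73* fell by 0.59 and 0.65. *MYC* rose by 0.73 and 0.61. Of 10 binding partners and regulators of MCL1 turnover, 4 rose and 0 fell with EGF and 2 rose and 0 fell with NRG-1. Among them, the 14-3-3 gene *YWHAZ* rose by 0.52 and 0.45. The other 14-3-3 gene named, *YWHAB*, rose by 0.14 (adjusted *P* = 0.0424) and 0.17 (adjusted *P* = 0.0138), calls lost in 11 and 5 of 20 alternatives. With EGF it was lost without EGF at 4 hours batch 1 replicate 1 or 2 or batch 2 replicate 2, or CSS batch 1 replicate 2 or batch 2 replicate 1 (adjusted *P*, 0.0679–0.118), and with NRG-1 without NRG-1 at 4 hours batch 2 replicate 2 (adjusted *P* = 0.0568). The ubiquitin ligase gene *BTRC* rose by 0.24 with EGF (adjusted *P* = 0.00279, lost in 5 of 20 alternatives). *FBXW7*, another such gene, rose by 0.22 with EGF (adjusted *P* = 0.0225, lost in 8 of 20). That call was lost without CSS batch 1 replicate 1, CSS batch 2 replicate 2, or EGF at 4 hours batch 2 replicate 1 (adjusted *P*, 0.052–0.0872). With NRG-1, *BTRC* (0.14, adjusted *P* = 0.0841) and *FBXW7* (0.16, adjusted *P* = 0.0991) did not pass. Without the batch 2 replicate 2 libraries both passed with NRG-1 (adjusted *P* = 0.0136 and 0.00178).

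**Figure D5:**
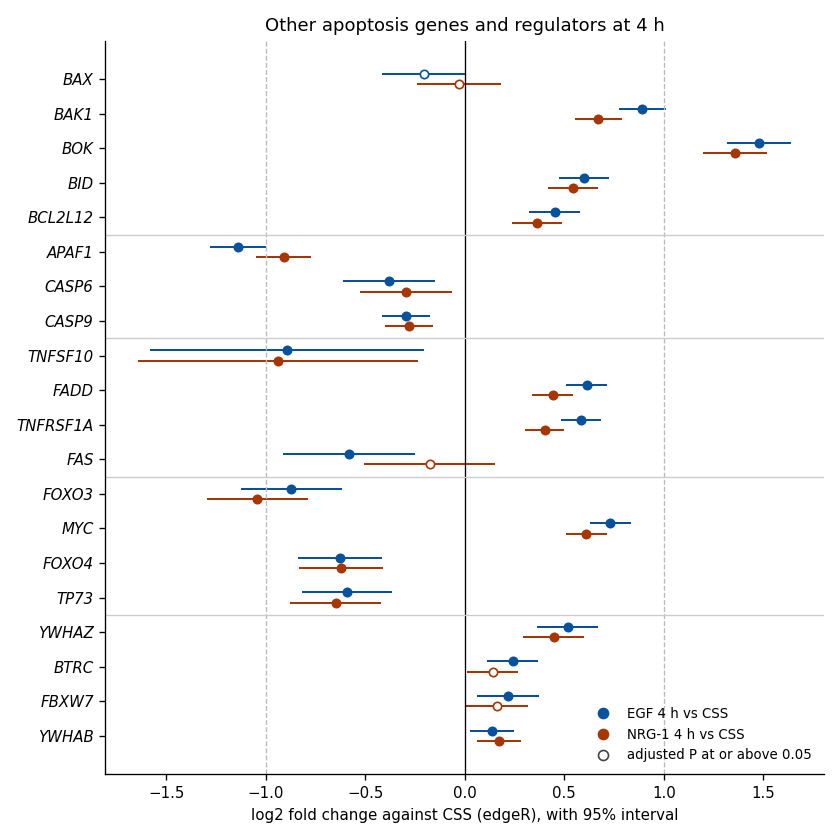
Log2 fold change against CSS at 4 hours of the 20 other pathway genes named here, with EGF and NRG-1 and 95% intervals from the edgeR fit, grouped by list, with open circles where the adjusted *P* was not below 0.05 and dashed lines at -1 and 1. *BOK* is farthest to the right, at 1.48 with EGF, and *APAF1* is farthest to the left, at -1.14 with EGF.

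The genes whose levels followed *BMF* and *MCL1* most closely over the 32 libraries were found by Pearson's *r* on log2 CPM after batch means were removed, among 12018 genes. For *BMF* they were *TRIM68* (*r* = 0.991), *RASEF* (0.985), *NET1* (0.984), *MTUS1* (0.984), and *SUOX* (0.983). *TRIM68* averaged 104 CPM in CSS, 28.8 CPM with EGF at 4 hours, and 35.7 CPM with NRG-1 at 4 hours. For *MCL1* they were *TRIB1* (*r* = 0.988), *MXD1* (0.986), *SRF* (0.975), *SOWAHC* (0.971), and *RYBP* (0.969). *TRIB1* averaged 34.8 CPM in CSS, 327 CPM with EGF at 1 hour, and 180 CPM with NRG-1 at 1 hour. These values describe points that share 8 groups and their libraries.

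Among the members themselves, over the same 32 libraries, *BMF* had an *r* of 0.969 with *BCL2L1*, 0.951 with *BCL2L11*, 0.923 with *BBC3*, and -0.787 with *HRK*. Its *r* with *MCL1* was 0.156.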

How the data were processed

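PolyA RNA of LNCaP cells was measured in 32 libraries (8 groups of 4, in 2 batches) and sequenced strand-specifically. Per the labels, the authors trimmed reads with Trimmomatic 0.36 and aligned them with STAR 2.7.0f to hg19, and the deposited expected counts and TPM values per gene were estimated with RSEM. The annotation is not given in the sources used here. Expected counts are not normalized, and 11.2% were not whole. TPM, as deposited, is scaled for length and library total.

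Expected counts were rounded, a gene was tested where 3 or more libraries held 5 or more counts, and TMM factors were applied. The test was edgeR 4.0.16 (R 4.3.3) with a quasi-likelihood fit of group and batch over all libraries, adjusted by Benjamini-Hochberg within each comparison. SEs were derived from the F statistic, and 95% intervals are 1.96 SE either side. Alternatives were DESeq2 1.42.0, its size factors, other filters, fits without the batch term or with a replicate block, the 2 groups alone, each batch alone, limma 3.58.1 on log2 TPM with pseudocounts of 1 and 0.1, and leaving out each library. The depth of at least 63822654 counts makes counting error small except for *HRK*, *TNFSF10*, and genes with low counts at 4 hours, such as *BMF*.

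The labels give batch and replicate, so same-numbered libraries share a batch. Their deviations from the group means correlated in 112 of 112 pairs (*r*, 0.133–0.571), and in 54 of 112 pairs *r* was over 0.1 once the batch was removed. With 2 libraries per group and batch, that removal makes the deviations of replicates 1 and 2 mirror images. Each *r* after it is therefore counted in both replicates, and the pairs are not independent. Libraries of a group differed by more than sampling noise in 48 of 48 pairs (chi-square per degree of freedom, 6.50–262). The labels call the replicates biological.

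The members and gene lists were chosen with earlier results of these data known. All members were named, and in each other list *BAX*, *BAK1*, and up to 4 genes that passed with the largest change with EGF at 4 hours. A gene that this rule names is not reported here. For likeness, the 5 genes with the highest *r* were named. Promoter sequences are from RefSeq (GRCh38.p14).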

Additional observations from a re-analysis of the deposited data

Results flagged for a closer look

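In 5 sets of a member and a group, 1 library lay far from the other 3 on the CPM scale. *BCL2L11* was at 29.7 CPM in batch 2 replicate 2 of EGF at 5 minutes, with the others at 34.8–35.9 CPM, and at 30.6 CPM in batch 2 replicate 2 of NRG-1 at 5 minutes, with the others at 35.3–36.2 CPM. *BAD* was at 56.1 CPM in batch 2 replicate 2 of FBS, with the others at 43.9–45.9 CPM, and at 55.0 CPM in batch 2 replicate 2 of NRG-1 at 5 minutes, with the others at 46.9–48.2 CPM. *BCL2L1* was at 101.8 CPM in batch 1 replicate 1 of FBS, with the others at 84.9–87.4 CPM. Of 80 sets examined, chance would mark about 4 (1 in 20), and 4 of the 5 marked libraries were batch 2 replicate 2.

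The direct comparison of EGF with NRG-1 marked 3 values, all of the genes the set was drawn up on, so they are a description. *MCL1* was higher with EGF by 0.44 (log2) at 1 hour and by 0.37 at 4 hours, and the log2 difference of *BMF* at 4 hours was -0.60. Without the batch 2 replicate 2 libraries the values were 0.44, 0.36, and -0.61.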

How the results depend on the processing

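Of 83 log2 fold changes that passed, 44 kept direction and call in every alternative. Of 1654 alternative values, 1495 kept both, 156 kept direction only, and 3 reversed. The 83 include values of *BMF* and *MCL1* with ligand, which are a description, so nothing is read about these genes from the counts. Of 580 alternative values of 29 that did not pass, 484 kept both, 37 passed, and 59 reversed. The cause was not tested in any case.

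The 3 reversals of a passing value were *FADD* in FBS (0.19), at -0.0050, -0.0054, and -0.0050 by limma on log2(TPM + 1), log2(TPM + 0.1), and log2(TPM + 1) without a filter. The other reversals were of small values, given below for those 3 TPM settings in that order. *BCL2L1* at 1 hour was at 0.011, 0.012, and 0.011 with EGF, and at -0.049, -0.050, and -0.049 with NRG-1 (-0.012 in batch 2 alone). *BCL2* with EGF at 1 hour was at 0.13, 0.19, and 0.13 (0.034 in batch 1 alone, and -0.080 to 0.0062 leaving out single libraries). *HRK* with NRG-1 at 1 hour was at -0.019, -0.043, and -0.019 (-0.21 in batch 1 alone, -0.024 without the batch 2 replicate 2 libraries, and -0.10 to 0.27 leaving out single libraries). *PMAIP1* with EGF at 4 hours was at -0.051, -0.054, and -0.051 (-0.0062 without the batch 2 replicate 2 libraries, and -0.033 to 0.086 leaving out single libraries). *BAD* with NRG-1 at 4 hours was at -0.10, -0.10, and -0.10 (-0.0012 with no filter on counts, -0.052 in batch 2 alone, -0.0067 without the batch 2 replicate 2 libraries, and -0.048 to 0.051 leaving out single libraries). *BAD* in FBS was at -0.18, -0.18, and -0.18, and passed there (-0.060 in batch 1 alone, -0.064 without the batch 2 replicate 2 libraries, and -0.077 to 0.050 leaving out single libraries). *BCL2L11* in FBS was at -0.13, -0.15, and -0.13 (-0.037 in batch 2 alone), and *BIK* in FBS at -0.17, -0.18, and -0.17 (-0.22 in batch 2 alone, and -0.073 to 0.12 leaving out single libraries). With NRG-1 at 4 hours, *BCL2* was at -0.085 in batch 2 alone (-0.0042 to 0.13 leaving out single libraries), *BAX* at 0.063 in batch 1 alone (-0.078 to 0.039 leaving out single libraries), and *FAS* at 0.13 in batch 2 alone.

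The numbers of members that passed were 3 and 5 (EGF and NRG-1 at 1 hour), 7 and 6 (4 hours), 6 (FBS), 1 and 2 (EGF against NRG-1 at 1 hour and 4 hours), and 8 and 8 (4 hours against 1 hour). In that order, the shares of all genes were 9.51%, 6.73%, 49.2%, 42.6%, 52.7%, 1.06%, 1.66%, 44%, and 37.5%. Nothing is read from the member counts, because they include *BMF* and *MCL1*, which entered the set by choice. In the reported fit, the counts between ligands hold only these genes. With a log2 fold change beyond 1 as well, the numbers of members were 1, 1, 3, 3, 1, 0, 0, 5, and 4. In batch 2 alone they were 1 and 1 at 1 hour and 0 and 0 between ligands. Without the batch term they were 1 with NRG-1 at 1 hour and 1 between ligands at 4 hours. With the 2 groups alone they were 6 with EGF at 1 hour and 1 between ligands at 4 hours. In the 3 TPM settings they were 3, 2, and 2 with NRG-1 at 1 hour and 0, 0, and 0 between ligands at 4 hours. Without the batch 2 replicate 2 libraries they were 5 with EGF at 1 hour, 7 with NRG-1 at 4 hours, and 5 in FBS. In the same setting they were 2 between ligands at 1 hour and 10 with NRG-1 at 4 hours against 1 hour. Leaving out single libraries gave 3 to 5 with NRG-1 at 1 hour (3 without CSS batch 2 replicate 1 or 2, or NRG-1 at 1 hour batch 1 replicate 2 or batch 2 replicate 2) and 1 to 2 between ligands at 4 hours (1 without EGF at 4 hours batch 1 replicate 1 or 2, or NRG-1 at 4 hours batch 2 replicate 1). At 5 minutes the number was 0 in all 20 alternatives.

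With the replicate block, which the pairing allows, 5 members passed with EGF at 1 hour. It gave a call to *BCL2L11* and *BIK* with EGF at 1 hour, *BCL2L11* with NRG-1 at 1 hour, and *BTRC* and *FBXW7* with NRG-1 at 4 hours (adjusted *P* = 0.0275 and 0.0151), and changed no other named call against CSS or between ligands.

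The BH3-only to survival ratio in FBS, CSS, EGF at 5 minutes, 1 hour, and 4 hours, and NRG-1 at 5 minutes, 1 hour, and 4 hours was 0.476, 0.335, 0.332, 0.128, 0.218, 0.325, 0.170, and 0.273 from summed CPM. It was 0.465, 0.298, 0.300, 0.148, 0.188, 0.285, 0.186, and 0.228 without *BAD*, and 2.64, 2.21, 2.245, 2.48, 2.77, 2.16, 2.53, and 2.83 without *MCL1*.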

Other observations

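Other genes of the pathway also differed in FBS and at 1 hour. FBS against CSS gave 2 higher and 4 lower of 11 other BCL2 relatives, 7 higher and 3 lower of 15 apoptosome, caspase, and inhibitor of apoptosis genes, and 5 higher and 1 lower of 10 death receptor genes, where 26% of all genes were higher and 26.8% lower. *TNFSF10*, which encodes the death ligand TRAIL, was at 1.06 ± 0.263 TPM in FBS and 0.233 ± 0.0499 TPM in CSS (SD, *n* = 4), a rise of 2.38 on the log2 scale (SE 0.27, adjusted *P* = 1.54e-08 by edgeR). *FOXO3* fell by 1.08 (SE 0.13, adjusted *P* = 6.29e-08), *FOXO4* fell by 0.74 (adjusted *P* = 1.52e-06), and *BOK* fell by 0.58 (adjusted *P* = 9.15e-07). *BCL2L12* rose by 0.85 (adjusted *P* = 7.19e-12). *FADD* rose by 0.19 on the count scale and was at -0.01 on the log2(TPM + 1) scale.

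At 1 hour, 4 of 10 death receptor genes rose and 0 fell with EGF, and 3 rose and 0 fell with NRG-1, beside 6% of all genes higher and 3.51% lower with EGF and 4.45% higher and 2.28% lower with NRG-1. *FAS*, the receptor of the FAS ligand, rose by 1.066 with EGF (SE 0.16, adjusted *P* = 1.99e-05) and by 0.72 with NRG-1 (SE 0.16, adjusted *P* = 0.00405), and in batch 2 alone the adjusted *P* values were 0.126 and 0.252. At 4 hours with EGF its level was below CSS. *TNFRSF1A* rose by 0.26 and 0.28 and *BCL2L12* by 0.28 and 0.33. *MYC*, which rose at 4 hours, fell by 0.31 with EGF at 1 hour (SE 0.05, adjusted *P* = 7.70e-05), and its adjusted *P* was 0.147 on the log2(TPM + 1) scale.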
